A study of Arabidopsis thaliana with 56 samples.

Results

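The comparison concerned the places in the Arabidopsis thaliana genome that carried histone H3 trimethylated at lysine 27 (H3K27me3) in wild-type (WT) endosperm and in WT leaf. The members were all peaks on chromosomes 1 to 5 in the 6 deposited peak lists of these tissues, 3 replicates of each. They came to 29374 peaks of 58491 in the 12 H3K27me3 lists of the series, with 16554 in the 3 endosperm lists and 12820 in the 3 leaf lists. The other 6 lists came from crwn1/2 plants and were not used.

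Endosperm samples were 6C nuclei, sorted by DNA content from crushed seeds of several pooled siliques of WT plants. Leaf samples were nuclei of the 2C, 4C, 8C and 16C classes, combined, from the fifth leaves of WT plants. Neither group carried an added allele or a treatment, and the labels gave no age for the CUT&RUN samples. In CUT&RUN an antibody directs a nuclease that releases the chromatin it is bound to, and the released fragments are sequenced. Tissue and DNA-content class differed together between the groups and cannot be told apart. Nothing in the labels states that the replicates came from separate plants, so the p-values measure only the spread between these samples. A mark carried by fewer nuclei and a weaker mark in all nuclei cannot be told apart in such pools.

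H3K27me3 is written by Polycomb repressive complex 2 (PRC2) and is known for keeping developmental genes silent where and when they are not needed. In Arabidopsis it commonly covers whole genes. The endosperm is the nutritive tissue of the seed, formed from its own fertilization event, and a PRC2 with seed-specific subunits is needed there for its normal development and for the parent-of-origin expression of imprinted genes. In leaves, PRC2 is known for silencing flowering, embryo and meristem genes.

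Endosperm H3K27me3 was called as more and narrower peaks than leaf H3K27me3. Endosperm replicates 1, 2 and 3 had 5669, 5503 and 5382 peaks, against 4347, 4345 and 4128 peaks in leaf. The mean was 5518 ± 144 peaks in endosperm and 4273 ± 126 peaks in leaf (SD, n = 3 each), a ratio of 1.29, and every endosperm list was longer than every leaf list. The median peak was 2850, 2700 and 3150 bp wide in the endosperm replicates, against 3750, 3750 and 3900 bp in the leaf replicates. Peaks of 5 kb or more made up 26.6 ± 3.35% of the endosperm peaks and 36.8 ± 0.697% of the leaf peaks (SD, n = 3 each), and again no libraries overlapped.

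The genome length under peaks differed far less than the number of peaks. It was 24.4, 23.8 and 26.4 Mb in the endosperm replicates, against 23.5, 23.0 and 23.2 Mb in the leaf replicates. The means of 24.9 ± 1.36 Mb in endosperm and 23.2 ± 0.235 Mb in leaf (SD, n = 3 each) came to 20.9% and 19.5% of the chromosomes. The difference of 1.65 Mb became 0.881 Mb without endosperm replicate 3, the list with the greatest length.

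Endosperm peaks also had a lower enrichment. The median of the authors' log2 enrichment over a control was 0.854, 0.858 and 0.865 in the endosperm lists, against 1.32, 1.35 and 1.33 in the leaf lists. The endosperm peaks held 2.20 M, 2.21 M and 2.83 M reads (M, 1e6), against 3.78 M, 3.62 M and 3.28 M reads in the leaf peaks, and the full depth of the libraries is not known. Reads per kb of peak averaged 96.6 ± 9.17 in endosperm and 153 ± 10.3 in leaf (SD, n = 3 each). This density was not scaled for depth, so the smaller number of reads in the endosperm peaks enters it. In exact two-sided permutation tests each of these 8 per-library values (number, length, median width, broad share, centromeric share, share at chromosome ends, reads, reads per kb) gave p = 0.1, and 0.1 after adjustment over the 8. That is the smallest p that 3 libraries against 3 allow.

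The order of the tissues in peak number and length turned with the threshold. At an authors' FDR of 1e-10 or less, the endosperm lists kept 3363, 3218 and 3586 peaks, against 3637, 3671 and 3465 peaks in the leaf lists. These counts overlapped, and the mean was 202 peaks lower in endosperm. The length under such peaks was 20.3 ± 1.68 Mb in endosperm and 21.9 ± 0.263 Mb in leaf (SD, n = 3 each), again with libraries that overlapped. At a log2 enrichment of 1 or more, 2011 ± 77.4 peaks remained in endosperm and 3014 ± 83.8 in leaf (SD, n = 3 each). At the FDR of 1e-10 the median width differed by -150 bp instead of -900 bp, endosperm minus leaf, and the share of peaks of 5 kb or more by -1.604 instead of -10.3 percentage points. What the lower enrichment of the endosperm lists contributes to their longer lists and narrower peaks was not tested.

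**Figure D1:**
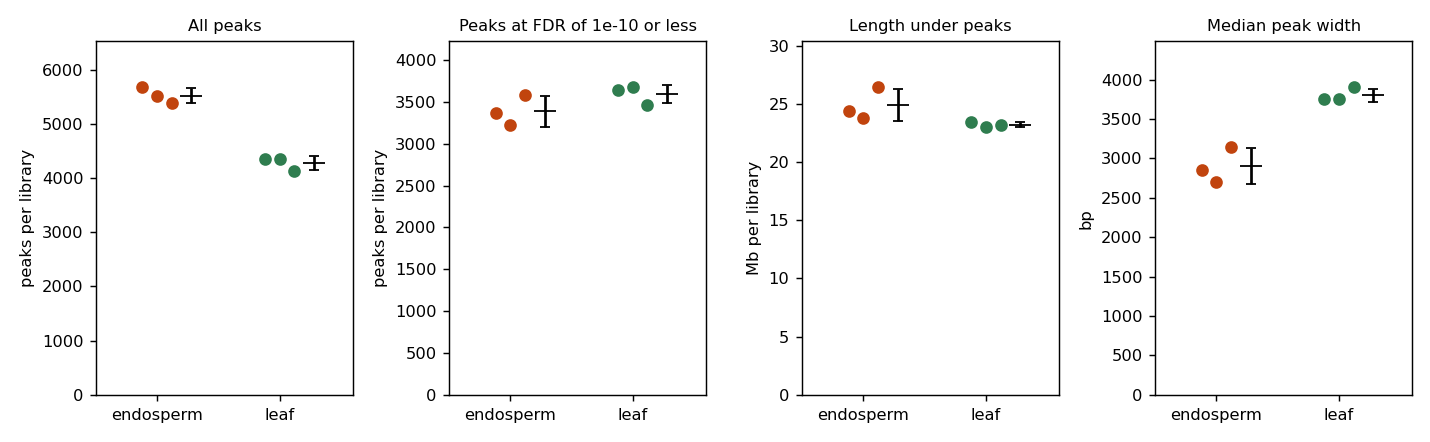
Values of the 6 WT H3K27me3 peak lists. Points are libraries (replicates 1 to 3 from left to right) and black bars are the mean and SD; the panels give the number of all peaks, the number at an authors' FDR of 1e-10 or less, the length under peaks in Mb and the median peak width in bp, each axis starting at 0. The 3 endosperm libraries lie above the 3 leaf libraries in the number of all peaks, overlap with them at the stricter FDR, and lie below them in median width.

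The tissues shared most of their marked length. Overlap of 2 lists was measured as the Jaccard index, the shared length divided by the joint length. It was 68.8% to 70.8% between endosperm libraries, 83.7% to 84.3% between leaf libraries and 51.3% to 56.7% in the 9 pairs of an endosperm with a leaf library. Every pair from different tissues therefore overlapped less than every pair from 1 tissue, and the endosperm libraries overlapped less among themselves than the leaf libraries did.

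Places under a peak in at least 2 of 3 libraries were taken as the regions of a tissue. There were 5534 such regions in endosperm, covering 24.4 Mb, and 4258 in leaf, covering 23.1 Mb. The shared part of 17.3 Mb was 70.9% of the endosperm length and 74.9% of the leaf length. By count, 72.8% of the endosperm regions and 80.2% of the leaf regions touched a region of the other tissue. The 1508 endosperm regions that touched no leaf region had a median width of 1800 bp, against 3300 bp for those that did. For leaf these were 842 regions, with medians of 1950 and 4500 bp. Of the regions of 10 kb or more, 97.1% in endosperm and 99.6% in leaf touched the other tissue, against 39.0% and 35.3% of the regions under 1 kb. Touching takes only 150 bp in common, so it comes more easily to wider regions. By length, the median share in common was 84.6% in endosperm and 91.5% in leaf for regions of 10 kb or more. It was 91.3% and 73.3% for regions of 2 to 5 kb, and 0% in both tissues under 1 kb.

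At the level of 150 bp steps, the grid on which the peak edges lie, 13.5 Mb was under a peak in all 6 libraries. A further 3.42 Mb was under a peak in 3 of 3 endosperm and 0 of 3 leaf libraries, and 2.42 Mb in 3 of 3 leaf and 0 of 3 endosperm libraries. Leaf peaks were more often broken up in endosperm than the reverse. Over the 9 pairs of libraries, 3.27% to 5.44% of the endosperm peaks touched 2 or more leaf peaks, whereas 12.8% to 18.4% of the leaf peaks touched 2 or more endosperm peaks. Within each endosperm list the peaks that touched no leaf region had a lower median log2 enrichment (0.594, 0.629 and 0.599) than those that did (0.963, 0.946 and 0.950). In the leaf lists the same medians were 0.911, 0.927 and 0.894 for peaks that touched no endosperm region, against 1.44, 1.50 and 1.46.

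**Figure D2:**
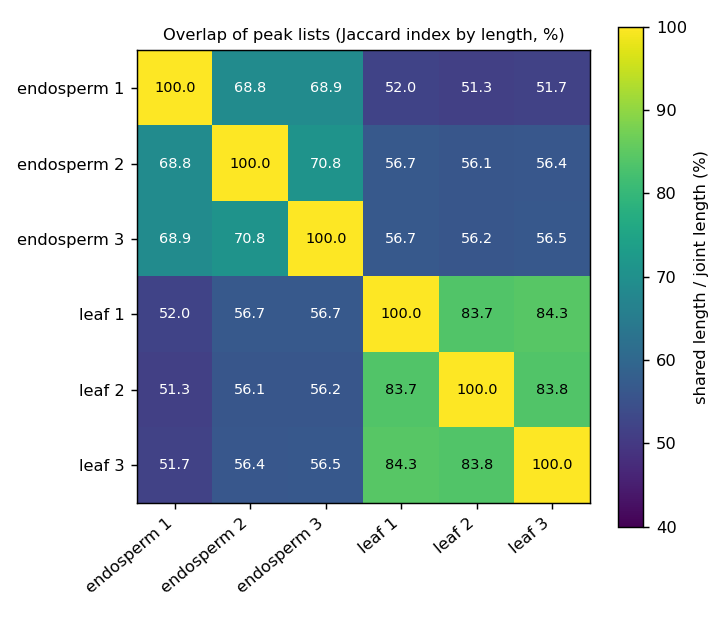
Overlap of each pair of WT H3K27me3 peak lists. Each cell gives the Jaccard index by length in percent, with endosperm libraries before leaf libraries on both axes. Pairs of leaf libraries reach 83.7% to 84.3%, pairs of endosperm libraries 68.8% to 70.8%, and pairs across tissues 51.3% to 56.7%.

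The 3 widest peaks of each tissue, with each place counted once, lay in different places in the 2 tissues. Positions are in TAIR10, the build named in the submitters' processing notes. The widest endosperm peak, of 54000 bp in replicate 3, lay at chr1:24315151-24369150 and held 14 protein-coding genes, among them FT, which encodes the mobile signal that starts flowering, and FAS1, a subunit of a chromatin assembly factor. Peaks covered 98.9%, 96.9% and 100% of this stretch in the endosperm replicates, against 64.7%, 60.0% and 58.6% in the leaf replicates. A peak of 53250 bp at chr4:7704751-7758000 held the auxin biosynthesis gene YUC2 with the terpene synthase genes TPS12 and TPS13 and the cytochrome P450 genes CYP71A19 and CYP71A20. It was 1 peak in each endosperm replicate and was split into 2, 3 and 2 peaks in the leaf replicates. Another endosperm peak of 53250 bp, at chr3:21561301-21614550, held 25 protein-coding genes, among them RTM3, a gene of resistance to virus movement. This stretch held 1, 2 and 3 peaks in the endosperm replicates and 2, 5 and 3 in the leaf replicates, so the tissues overlapped. Peaks covered 100%, 97.7% and 91.8% of it in endosperm, against 79.7%, 72.4% and 78.9% in leaf.

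The widest leaf peak, of 84750 bp in replicate 3, lay at chr4:8730301-8815050, where leaf replicate 1 had a peak of 73200 bp. The widest leaf peak held PEN1 and BARS1, which encode triterpene synthases, with CYP702A and CYP705A genes of the cytochrome P450 family. This stretch held 9, 8 and 6 peaks in the endosperm replicates, against 2, 3 and 1 peaks in the leaf replicates. Peaks nevertheless covered 88.7%, 91.2% and 93.3% of it in the endosperm replicates, against 98.9%, 98.1% and 100% in the leaf replicates. Leaf peaks of 54900 bp at chr1:19236601-19291500, with the root hair gene RHS6, and of 53700 bp at chr5:15092701-15146400 came next. Both stretches held 3 to 6 peaks in each endosperm library, against 2, 2 and 1 peaks in the leaf replicates. Each was whole only in leaf replicate 3, whose list set its limits.

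Regions marked in 3 of 3 libraries of 1 tissue and in none of the other, at a minimum length of 1 kb, numbered 1189 in endosperm and 884 in leaf. Those of 5 kb or more numbered 100 in endosperm and 15 in leaf. At the FDR of 1e-10 the counts turned to 727 in endosperm and 1069 in leaf. The longest endosperm-only region, of 13800 bp, lay at chr1:3979801-3993600 and held ADT1, an arogenate dehydratase gene of phenylalanine synthesis. The next 4 lay at chr1:25457101-25470150, at chr1:7902451-7915350 with the glycosyltransferase gene UGT85A1, at chr3:4539301-4551600 with IDD11, which encodes a zinc-finger factor, and at chr2:16284751-16296450 with PIP2E, an aquaporin gene. The longest leaf-only region, of 14700 bp at chr5:24571351-24586050, held the histone deacetylase gene HDA18 and had no endosperm peak in the same unbroken stretch. The next 4 lay at chr3:17167501-17176200, at chr2:17189701-17197650 with ORS1, an organ size gene, at chr2:18351151-18359100 with the beta-glucosidase gene BGLU29, and at chr1:11578051-11585550 with no protein-coding gene.

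Along the chromosomes, endosperm peaks were spread less towards the chromosome ends than leaf peaks. The outermost 2 Mb at the ends of the chromosomes held 11.7%, 11.98% and 12.4% of the endosperm peak length, against 14.5%, 15.1% and 14.6% of the leaf peak length. The 2 Mb on each side of the approximate centromeres held 2.54%, 2.72% and 2.66% of the endosperm length, against 3.03%, 2.99% and 3.06% of the leaf length. The order at the centromeres turned when the window was narrowed to 1 Mb, where endosperm was higher by 0.0239 percentage points. In both tissues the share of this centromeric sequence under peaks was low, 3.28 ± 0.207% in endosperm and 3.51 ± 0.0602% in leaf (SD, n = 3 each), with libraries that overlapped. Of the rest of the chromosomes 24.4 ± 1.34% was under peaks in endosperm and 22.7 ± 0.227% in leaf (SD, n = 3 each).

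By windows of 1 Mb, endosperm exceeded leaf without overlap of libraries in 46 of 119 windows (38.7%) and leaf exceeded endosperm in 32 (26.9%). Among the 23 windows at chromosome ends the numbers were 3 and 11. At the FDR of 1e-10, an alternative chosen after seeing the data, they were 19 and 56 over all windows. The 2 windows with the largest excess in endosperm were neighbours on chromosome 1. From 24 to 25 Mb, which takes in the FT domain, peaks covered 65.7%, 63.7% and 66.2% in endosperm, against 46.9%, 44.9% and 47.0% in leaf. From 25 to 26 Mb they covered 50.1 ± 3.24% in endosperm and 32.1 ± 0.432% in leaf (SD, n = 3 each). Both kept their direction at the FDR of 1e-10, with means of 58.9% in endosperm and 44.1% in leaf, and of 42.4% in endosperm and 30.99% in leaf. The largest excess in leaf lay in the first Mb of chromosome 2, with 16.4 ± 1.98% in endosperm and 22.4 ± 0.472% in leaf, and of chromosome 4, with 20.6 ± 1.603% in endosperm and 26.6 ± 0.736% in leaf (SD, n = 3 each). By whole chromosome the excess in endosperm was largest on chromosome 1, where peaks covered 24.4 ± 1.12% in endosperm and 21.7 ± 0.261% in leaf (SD, n = 3 each), while the libraries of the tissues overlapped on chromosomes 4 and 5.

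**Figure D3:**
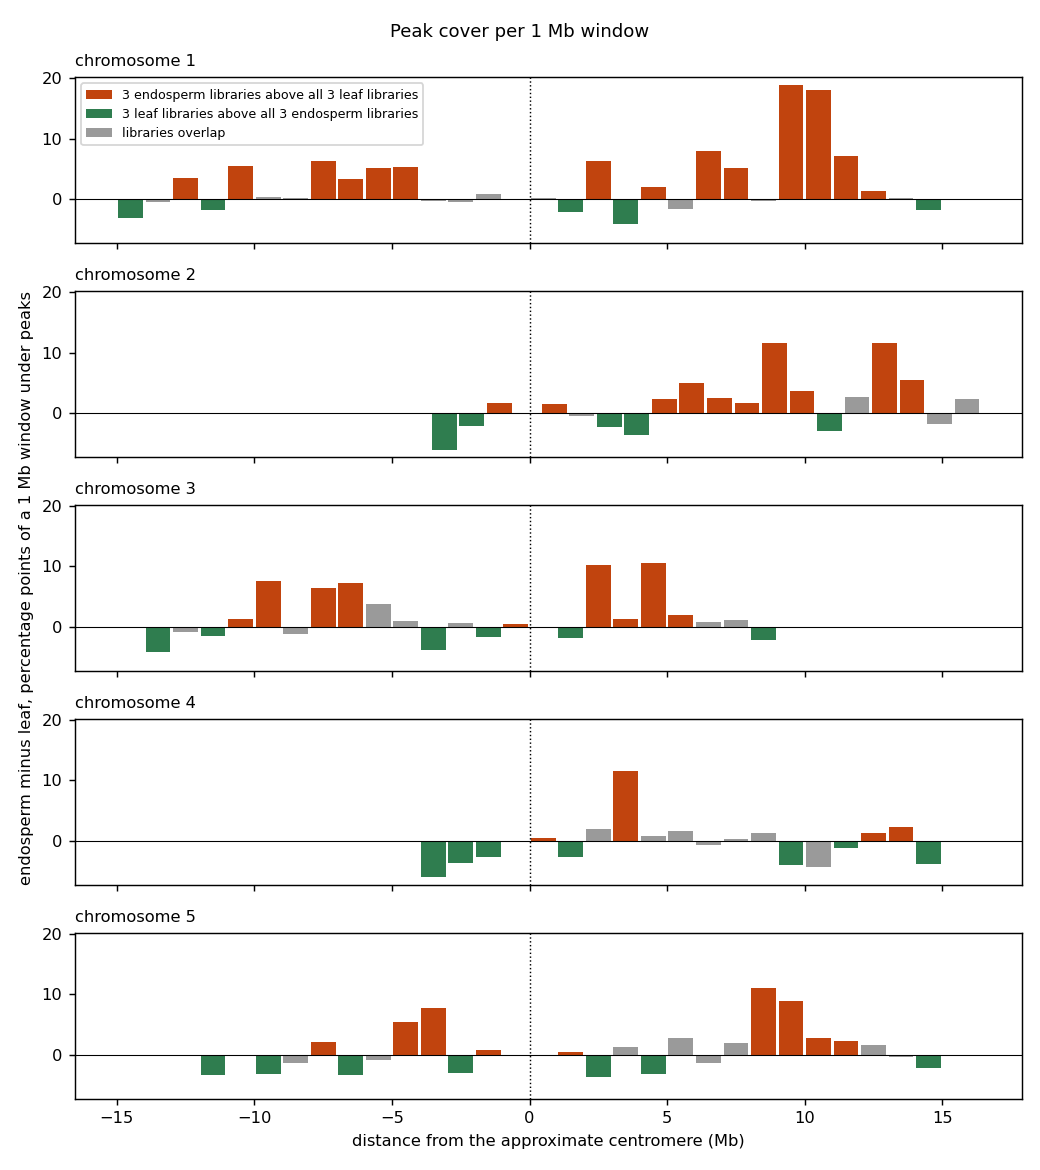
Difference in peak cover per window of 1 Mb, endosperm minus leaf in percentage points, against the distance in Mb from the approximate centromere, for chromosomes 1 to 5. Colours mark windows where the 3 libraries of 1 tissue all exceed the 3 of the other and windows where libraries overlap. The 2 neighbouring windows on the right arm of chromosome 1 stand above the rest, and 11 of the 23 windows at chromosome ends are higher in leaf.

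Peaks were matched to the gene table of RefSeq for TAIR10.1, whose nuclear chromosomes are those of TAIR10. A protein-coding gene was called marked in a tissue where peaks covered 50% or more of it in 3 of 3 libraries, and unmarked where they covered under 10% in 3 of 3. Of 27444 such genes, 5432 (19.8%) were marked in endosperm and 5415 (19.7%) in leaf. Marked in both tissues were 4076 (14.9%), marked in endosperm and unmarked in leaf 777 (2.83%), marked in leaf and unmarked in endosperm 430 (1.57%), and unmarked in both 16593 (60.5%). The other 5568 met neither rule in at least 1 tissue. At the FDR of 1e-10 the genes of only endosperm numbered 551 and those of only leaf 720, so which tissue had more of its own depended on the threshold.

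The peaks of endosperm lay more within protein-coding genes. These genes held 58.2%, 55.2% and 54.8% of the endosperm peak length, against 50.4%, 49.5% and 50.1% of the leaf peak length, and they take up 56.8% of the chromosomes. Sequence outside all annotated genes held 36.5%, 39.6% and 40.2% of the endosperm length, against 44.6%, 45.6% and 44.9% of the leaf length. Genes marked only in endosperm had a median length of 2158 bp, those marked only in leaf 1285 bp, and those marked in both 1636 bp. MicroRNA genes were marked in both tissues in 82 of 326 cases (25.2%), pseudogenes in 95 of 3917 (2.43%).

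Many developmental regulators were marked in both tissues, which over all protein-coding genes held for 14.9%. The lists were drawn up by known roles. Besides the genes that met the rule for 1 tissue only and the leading 2 of each list, the listed genes named were chosen after their values were seen. Among 17 genes of the meristem and embryo homeobox and CUC families, 14 were marked in both tissues, with STM and WUS, which maintain the shoot meristem, covered 100% in all 6 libraries, and KNAT1 in 82.7% to 100%. All 4 marked genes among the 5 root and embryo pattern regulators, with PLT1 and PLT2 of the root stem cell niche, were marked in both. Of the 8 regulators of epidermis, stomata and trichomes 5 were marked in both, among them SPCH and MUTE, which act at successive steps of the stomatal lineage. Of 13 leaf polarity and leaf growth regulators 7 were marked in both, among them FIL and YAB2 of the YABBY family.

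TCP10, a microRNA-regulated factor that restrains leaf growth, was covered 100% in each endosperm library and 0% in each leaf library. The share of the list marked in endosperm only was 1 of 13, with 2.83% over all genes. TCP2 was covered 95.8%, 0% and 96.9% in the endosperm replicates and TCP24 0%, 100% and 95.2%, against 0% in every leaf library, so both met the rule in 2 of 3 endosperm libraries. TCP3 and TCP4 were at 0% in all 6 libraries.

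Several floral organ identity genes had more cover in leaf. Of 21 flowering and floral organ regulators, 14 were marked in endosperm and 20 in leaf, with 19.8% and 19.7% over all genes. Marked in both were 13, among them AP1, which specifies sepals and petals and floral meristems. SEP1, a MADS-box cofactor of all floral organ genes, was at 0% in each endosperm library and 100% in each leaf library. SHP1, a gene of ovule and fruit valve margin identity, was at 0% in each endosperm library and at 100%, 82.4% and 89.3% in the leaf libraries. Of their close relatives, SEP2, SEP3 and AG went the same way without meeting the rule. SEP4 did not, with 96.6%, 100% and 90.9% in the endosperm replicates, against 90.9%, 100% and 90.9% in the leaf replicates. SEP2 was covered 0%, 15.7% and 22.7% in the endosperm replicates and SEP3 0%, 0% and 91.4%, against 100% in every leaf library. AG, the master gene of stamens and carpels, was covered 44.8%, 60.4% and 100% in the endosperm replicates and 100% in each leaf replicate.

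SVP, a repressor of flowering, went the other way and was covered 100% in each endosperm library and 0% in each leaf library. FLC, another repressor of flowering and a classical PRC2 target, was covered 100% in all 6 libraries, and so was FT. Over the list 6 genes had more cover in all leaf than in all endosperm libraries and 2 had less. Over all protein-coding genes these counts were 1251 (4.56%) and 1662 (6.06%).

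All 13 seed storage and oil body genes, which encode the 12S and 2S storage proteins, oleosins and caleosin, were marked in both tissues, with 14.9% over all protein-coding genes. The 12S globulin genes CRA1 and CRB were covered 97.9% to 100% in the 6 libraries. SESA1 to SESA4 lie under 1 shared region, and so do CRB and CRD, so they are not independent cases, and reads of such near-identical copies cannot always be told apart. Of 9 seed maturation regulators, LEC1, a CCAAT-binding factor subunit that drives embryo maturation, was at 0% in each endosperm library and at 100% in each leaf library. Its relative L1L was at 0% in all 6, and FUS3, ABI3 and ABI4, 3 further maturation factors, were covered 100% in all 6. LEC2 was covered 70.6%, 100% and 75.6% in the endosperm replicates and 100% in each leaf replicate.

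Imprinted genes are expressed in endosperm mainly from 1 parental copy. Of 10 paternally expressed genes, 8 were marked in both tissues, with 14.9% over all protein-coding genes, and ADM and SUVH7 were covered 100% in all 6 libraries. In endosperm only and in leaf only 0 of the 10 were marked, with 2.83% and 1.57% over all genes. H3K27me3 is known to mark the silent maternal copy of many such genes, and peaks do not tell the parental copies apart. Of 7 maternally expressed genes, 2 were marked in endosperm and 5 in leaf, with 19.8% and 19.7% over all genes. FWA, a homeobox gene silenced by DNA methylation outside the endosperm, was at 0% in each endosperm library and at 100%, 79.0% and 71.6% in the leaf libraries. FIS2, a PRC2 subunit of the seed, was covered 28.6%, 57.3% and 57.3% in the endosperm replicates, against 80.8%, 87.9% and 80.8% in the leaf replicates. HDG8 was covered 32.7%, 32.7% and 76.4% in the endosperm replicates, against 100% in each leaf replicate. MEA, the seed-specific catalytic subunit of PRC2, was marked in both, with 81.7%, 94.0% and 83.9% in the endosperm replicates and 100% in each leaf replicate. In all, 4 of the 7 had more cover in all leaf than in all endosperm libraries and 0 had less, with 4.56% and 6.06% over all genes. Among the 10 paternally expressed genes these counts were 2 and 0.

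Many type I MADS-box genes act in the female gametophyte and early endosperm. Of 17, 8 were unmarked in both tissues, among them AGL62, a repressor of endosperm cellularization, and 4 were marked in both, among them the near-identical neighbours PHE1 and PHE2, whose reads cannot always be told apart. Over all genes these shares were 60.5% and 14.9%. AGL45 was at 0% in each endosperm library and at 100% in each leaf library. AGL92 was covered 100% in each endosperm library, against 3.97%, 14.1% and 0% in the leaf libraries, of which replicate 2 was over the 10% limit. Among 7 seed coat genes, which act in pigment and mucilage formation, TT10 alone was marked in both, a share near the 14.9% over all genes. BAN was covered 91.7%, 26.4% and 42.7% in the endosperm replicates and 42.7%, 26.4% and 26.4% in the leaf replicates, so the tissues overlapped, and TT2 had cover only in leaf replicate 3, at 73.8%.

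Of 13 nuclear photosynthesis genes, 4 were marked in endosperm and unmarked in leaf, 8 were unmarked in both and 0 were marked in leaf. Over all genes 2.83% were marked in endosperm only, 60.5% were unmarked in both, near the share of the list, and 19.7% were marked in leaf. RBCS1B, RBCS2B and RBCS3B, which encode small subunits of Rubisco, were covered 100% in each endosperm library, and in leaf at 0% apart from 6.83% of RBCS3B in replicate 2. They are neighbours under a single domain and near-identical copies, and so count as 1 case. RBCS1A, on a different chromosome, was covered 92.3%, 39.7% and 87.2% in the endosperm replicates and 0% in each leaf replicate. LHCB5, a minor light-harvesting protein of photosystem II, was covered 100% in each endosperm library and 0% in each leaf library. The major light-harvesting genes CAB1, CAB2 and CAB3 were at 0% in all 6 libraries. Of 10 broadly expressed reference genes, 8 were unmarked in both, with 60.5% over all genes, among them ACT2 and ACT7. PP2AA3, a phosphatase subunit gene, was covered 95.0%, 74.6% and 61.1% in the endosperm replicates and 0% in each leaf replicate. At the FDR of 1e-10, TCP10 and PP2AA3 no longer met the rule, while SVP, the 3 RBCS genes, LHCB5, SEP1, SHP1, LEC1, FWA and AGL45 did.

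**Figure D4:**
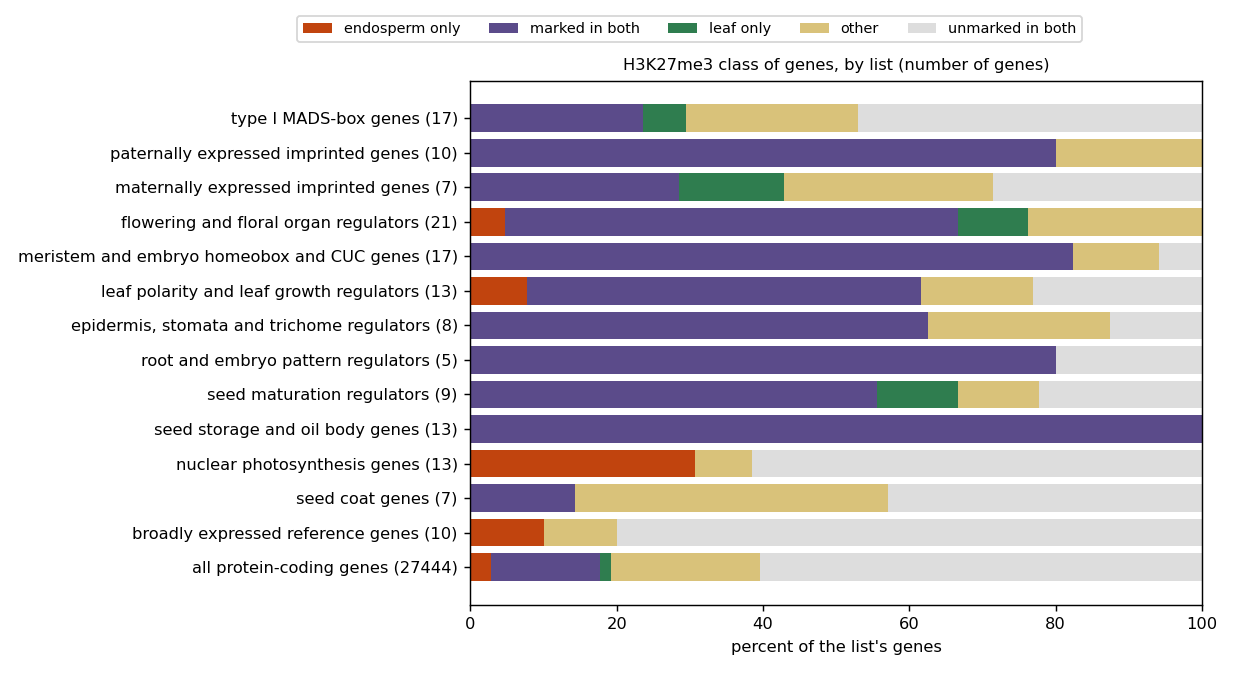
Share of the genes of each list, in percent, that were marked in endosperm only, in both tissues, in leaf only, in neither, or that met neither rule in at least 1 tissue (other). The number of genes stands in brackets and the lowest bar gives all 27444 protein-coding genes. Meristem, storage and paternally expressed genes are mostly marked in both, and the photosynthesis list has the widest bar of endosperm only, 4 of 13 genes. Of these, RBCS1B, RBCS2B and RBCS3B lie under a single domain and count as 1 case.

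Among the 10 longest genes with a symbol that were marked in endosperm only, ATRX, a chromatin remodeller that deposits histone H3.3, was covered 100%, 99.8% and 98.4% in the endosperm replicates and 0% in each leaf replicate. SNL5, a Sin3-like corepressor, was covered 100%, 97.1% and 100% in endosperm and 0% in leaf. AGO10, an Argonaute of meristem and leaf development, was covered 68.1%, 70.6% and 70.6% in endosperm, and DCL4, the Dicer of trans-acting small RNAs, 89.7%, 58.4% and 51.1%, against 0% in every leaf library. The other 6 were GMI1, HB-1, BSL3, RLM3, FRA3 and VHA-A1, whose cover ranged from 54.8% to 100% in endosperm and from 0% to 8.62% in leaf. FRA3 reversed at the FDR of 1e-10, to 1.47 percentage points lower in endosperm. Of 31 genes named by the rule as marked in 1 tissue only, 20 kept their class at that FDR and 14 with 80% in place of 50% of the gene.

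Among the 10 longest marked in leaf only, AGO9 and AGO5, Argonautes known from reproductive tissues, were at 0% in each endosperm library. AGO9 was covered 100%, 72.6% and 99.5% and AGO5 94.9%, 65.4% and 100% in the leaf replicates. BGLU29 was at 0% in each endosperm library and at 100% in each leaf library. SHP1, given above, was among them, and so were TIL2, HDG1, LON3, HAP8 and BON3, covered by 0% to 7.96% in endosperm and by 52.2% to 100% in leaf. Length, not a shared function, chose the genes of both directions.

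How strongly the shared domains were marked was compared as read density. Peaks of the 6 lists merged into 5604 regions, and 2539 of them had a peak in every library and could be tested. The density, reads per kb of called width scaled to an equal number of reads in peaks, was tested with edgeR's quasi-likelihood test and Benjamini-Hochberg adjustment over these regions. It was higher in endosperm in 769 regions (30.3%) and lower in 793 (31.2%). The medians of the called changes were 0.43 and -0.36 on the log2 scale, and 24 and 4 regions changed 2-fold or more. The median over all regions was 0.01. The scaling was taken from these same regions and sets this median near 0. The split into higher and lower regions therefore gives relative differences and does not compare the total level of the mark.

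The direction went with the density of the region itself. Regions were split into 4 classes of about equal size by mean density. In the lowest class 403 were higher and 6 lower in endosperm, and in the highest class 64 were higher and 423 lower. The median difference in these classes was 0.34 and -0.28 on the log2 scale. The part of the lower enrichment of the endosperm lists in these calls was not tested.

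**Figure D5:**
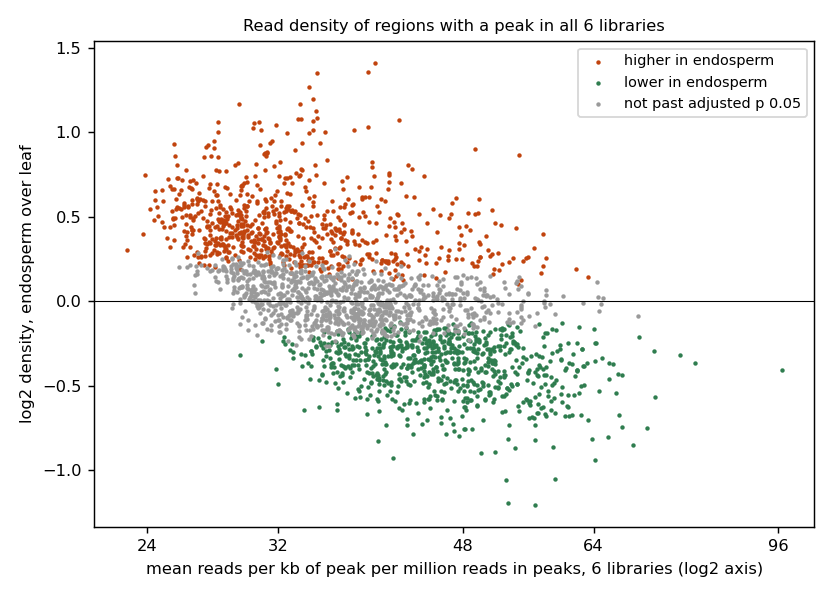
Read density of the 2539 regions with a peak in all 6 libraries. The x axis is the mean reads per kb of peak scaled to an equal number of reads in peaks over the 6 libraries, on a log2 axis, and the y axis the log2 ratio of endosperm over leaf; colours mark regions higher, lower or not past an adjusted p of 0.05 in edgeR's test. Regions of low density lie mostly above 0 and regions of high density mostly below.

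The region with the largest increase, at chr2:16921651-16929900 with AT2G40520 and AT2G40530, had 60.4, 58.5 and 51.9 scaled reads per kb in the endosperm replicates, against 20.5, 21.7 and 24.7 in the leaf replicates. On the log2 scale endosperm exceeded leaf by 1.41 ± 0.0855 (SE), with an adjusted p of 1.9e-16 in edgeR's test. The region at chr2:12218251-12232350 holds RAP2.7, also known as TOE1, an AP2-type repressor of flowering, and had 51.1, 51.8 and 46.1 in endosperm, against 22.3, 20.4 and 17.7 in leaf. The other 3 of the 5 lay at chr2:9092101-9100200, at chr3:16445551-16450800 with XTH31, a cell wall remodelling gene, and at chr3:389101-393750 with PTF1, also known as TCP13, with log2 differences of 1.36, 1.27 and 1.20.

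Of the 5 largest decreases, the first lay at chr3:21760201-21773550, where the density was 33.1, 37.5 and 29.6 in the endosperm replicates, against 79.7, 76.8 and 81.0 in the leaf replicates. The difference was -1.20 ± 0.0643 on the log2 scale (SE), with an adjusted p of 4.3e-18 in edgeR's test. The others lay at chr1:920851-930150, at chr2:10314751-10326450 with LRL1, a root hair factor, at chr3:20612701-20622150 and at chr4:8058901-8063700, with log2 differences of -1.19, -1.06, -1.05 and -0.94.

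Among the listed genes, density was that of the whole region around each. Over all tested regions 30.3% were higher and 31.2% lower in endosperm, and in the class of highest density 423 of 635 were lower. The counts of the lists below were not compared at like density. Of 15 genes of the meristem and embryo list 11 were lower, 1 was higher and 3 did not pass the threshold. The region of STM had 41.7, 46.4 and 38.5 in endosperm, against 57.5, 56.6 and 58.9 in leaf. WOX1, a homeobox gene of leaf blade growth, was the 1 that was higher, with 58.7, 64.3 and 67.3 in endosperm, against 33.3, 35.4 and 36.8 in leaf (0.90 ± 0.0716 on the log2 scale, SE, with an adjusted p of 1.7e-13 in edgeR's test). Of 15 flowering genes 10 were lower and 2 higher. The region of FT was one of these, with 55.4, 54.9 and 50.1 in endosperm, against 39.98, 44.5 and 41.9 in leaf. All 13 storage and oil body genes lay in tested regions, 10 of them in lower regions, some of them shared, and 3 not past the threshold. All 6 epidermis genes in tested regions were lower, and 4 of 6 seed maturation genes. Among the 8 paternally expressed genes 3 were higher, near the share over all regions, and 1 lower. ADM, one of the 3, had 50.7, 46.9 and 40.1 in endosperm, against 31.9, 32.1 and 29.2 in leaf.

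The marked genes were last set beside mRNA of WT endosperm 6C nuclei, in 4 libraries at 6 and 4 at 7 days after pollination (DAP), with 6986418 to 9448478 counts each. No leaf mRNA was analysed here. Values are CPM, the count of a gene per 1e6 counts of the library, and medians over genes are given per kb of annotated gene span. At 6 DAP the median gene marked in endosperm only had 1.97 ± 0.138 CPM per kb, that marked in both tissues 0.234 ± 0.0757, that marked in leaf only 1.11 ± 0.092, and that unmarked in both 6.38 ± 0.257 (SD, n = 4 each). Over all protein-coding genes the median was 3.85 ± 0.132 CPM per kb (SD, n = 4). At 7 DAP the same medians were 2.14 ± 0.301, 0.398 ± 0.101, 0.887 ± 0.0747, 5.82 ± 0.0772 and 3.52 ± 0.0795 CPM per kb (SD, n = 4 each), in the same order of classes. Genes marked in both tissues were thus the lowest class in every library. Of the genes marked in endosperm only, 40.3 ± 0.497% had 10 CPM or more at 6 DAP, against 28.6 ± 0.996% of those marked in leaf only and 49.3 ± 0.523% of all (SD, n = 4 each). These shares were not scaled for gene length, whose median was 2158 bp for endosperm only and 1285 bp for leaf only.

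Of the 5 listed genes marked in leaf only, 4 had counts in each of the 8 endosperm libraries. Most genes had counts in a given library. The share with no count was 2.85% to 13.4% over all protein-coding genes and 4.50% to 21.1% over those marked in leaf only. At 6 DAP the libraries also held seed coat markers at a summed 985 to 1139 CPM and endosperm markers at 27.8 to 38.9 CPM. Such sums depend on the genes chosen. The part of other seed tissues in the values below was not tested. LEC1 had 225, 176, 159 and 143 CPM in the 6 DAP libraries and 48.8 ± 10.96 CPM at 7 DAP (SD, n = 4). SEP1 averaged 72.0 ± 8.75 CPM, SHP1 62.9 ± 6.94 CPM and FWA 8.46 ± 2.63 CPM at 6 DAP (SD, n = 4 each). AGL45 averaged 0.0281 ± 0.0562 CPM at 6 DAP and 0.141 ± 0.165 CPM at 7 DAP (SD, n = 4 each). BGLU29 had 619 ± 70.7 CPM at 6 DAP and 1014 ± 145 CPM at 7 DAP (SD, n = 4 each), and AGO9 and AGO5 98.1 ± 11.8 and 72.6 ± 18.01 CPM at 6 DAP (SD, n = 4 each).

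The mark in endosperm did not always go with low mRNA. LHCB5, covered in full in endosperm, had 969 ± 74.4 CPM at 6 DAP (SD, n = 4), whereas RBCS1B had 1.76 ± 0.943 CPM and SVP 4.87 ± 1.35 CPM (SD, n = 4 each). RBCS2B and RBCS3B, under the same domain as RBCS1B, had 1.03 ± 0.541 and 82.6 ± 13.96 CPM at 6 DAP (SD, n = 4 each), and reads of these near-identical copies cannot always be told apart. AGO10 averaged 88.2 ± 8.05 CPM and DCL4 24.6 ± 2.87 CPM at 6 DAP (SD, n = 4 each). FUS3, covered in full in both tissues, had 381, 370, 525 and 438 CPM at 6 DAP. The storage gene CRU3 had 0.355 ± 0.0876 CPM at 6 DAP and 1280 ± 892 CPM at 7 DAP (SD, n = 4 each).

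Markers of other tissues were present in these mRNA libraries. At 6 DAP the summed level of 6 endosperm markers was 27.8 to 38.9 CPM, that of 5 seed coat markers 985 to 1139 CPM, that of 5 embryo markers 7.80 to 17.1 CPM, and that of 5 photosynthetic markers of leaf 6819 to 8324 CPM. At 7 DAP the ranges were 19.6 to 35.4, 626 to 946, 17.97 to 24.05 and 8808 to 10479 CPM. These sums depend on the genes chosen and do not measure how much of a library each tissue gave. Among imprinted genes outside the endosperm set, 6 DAP means ran from 0.12 CPM for PEG2 to 140 CPM for HDG3. All 21 markers had counts in at least 1 library. Their part in the values of marked genes was not tested. A lower level from fewer nuclei of a type and from less RNA per nucleus cannot be told apart in these pools, and the CUT&RUN and mRNA libraries were made from different samples.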

How the data were processed

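H3K27me3 CUT&RUN peaks of WT endosperm and leaf nuclei (3 libraries each) and mRNA of WT endosperm nuclei (4 libraries each at 6 and 7 DAP) were used. The peak lists were deposited by the authors, 1 per library, with for each peak a read count, a p-value and FDR, a score and a log2 enrichment over a control. The submitters' processing notes name Trim Galore 0.6.7, Bowtie2 2.3.4.1, SAMtools, Picard, SICER 0.0.52, deepTools and DiffBind 3.8.4, with STAR 2.7.1a and HTSeq, and TAIR10. The mRNA tables deposited by the authors hold raw counts per gene. The 12 control-count columns were not used, and full CUT&RUN depth is not given in the sources used here.

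Peaks were laid on their 150 bp grid. Centromere positions were rounded textbook values. Gene overlap used the RefSeq TAIR10.1 table, all 150 listed genes matched, and no coordinate of it is printed. The median mRNA of marked genes was 0.711 CPM with that table in place and 8.56 CPM with it shifted by 20000 bp. Read density was tested with edgeR 4.0.16 in R 4.3.3, using TMM factors and the log called width as offset, on regions called in all 6 libraries, and it was tested on simulated data. DESeq2 1.42.0 was an alternative. Other values used Python 3.11.15, numpy 2.4.6, pandas 2.3.3 and scipy 1.17.1, with exact permutation tests over libraries. Alternatives changed the peak threshold, the overlap rules, the gene rule, the windows, the scaling, the replicate block and the libraries used. A promoter motif count was not run.

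Named were list genes that met the rule for 1 tissue only and the leading 2 of each list. In each direction the 10 longest genes with a symbol that met the rule were also named. So were the 5 longest tissue-only regions and, with each place counted once, the 3 widest peaks of each tissue. The 5 largest density differences in each direction completed the choice. One of the genes so chosen is not reported here. The members and lists were chosen with earlier results of these data known.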

Additional observations from a re-analysis of the deposited data

Results flagged for a closer look

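In groups of 4 mRNA libraries, 5 of 54 values checked had 1 library far from the other 3 of its group, and chance alone gives about 1 in 20. At 6 DAP, PP2AA3 had 58.3 CPM in its highest library, FLC 64.04 CPM in its lowest and PHE1 2.697 CPM in its highest. At 7 DAP, PHE1 had 0.612 CPM in its highest library. The median of genes marked in both tissues was 0.256 CPM in the lowest 6 DAP library, replicate 3, in which 29.2% of these genes had no count.

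The peak lists also hold peaks on the plastid and mitochondrial genomes, which the comparisons did not use. Plastid peaks held 33144, 48860 and 41078 reads in the endosperm replicates, against 29561, 45478 and 25500 reads in the leaf replicates. Their share of all peak reads was 1.49%, 2.15% and 1.43% in endosperm, against 0.775%, 1.24% and 0.771% in leaf. Endosperm replicate 2 alone had mitochondrial peaks, 4 with 13658 reads. The source of these reads was not tested.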

How the results depend on the processing

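Of 588 alternative values for 64 results, 517 kept their direction and call or stayed close, and 6 reversed. The 517 include the replicate block of the 8 per-library values, which could not change them. The cause of the changes below was not tested. At an FDR of 1e-10 or less, endosperm minus leaf turned to -202 peaks and -1.61 Mb, and at a log2 enrichment of 1 or more to -1003 peaks and -6.29 Mb. The centromeric share turned to 0.0239 with a window of 1 Mb, and FRA3 to -1.47 percentage points at the FDR of 1e-10. The share of endosperm and of leaf length in common was 67.1% and 81.0% with bins in 1 of 3 libraries, 74.9% and 68.7% at the FDR of 1e-10, and 66.9% and 72.1% for regions shared over 50% of their length. For leaf it was 66.5% with bins in 3 of 3 libraries and 80.2% for regions with 1 shared bin. Endosperm-only regions numbered 2033 at a minimum of 150 bp, 547 at 2 kb and 727 at the FDR of 1e-10, and leaf-only regions 2425 at 150 bp and 302 at 2 kb. Genes marked in endosperm only numbered 486 under an 80% rule, and those in leaf only 264 under it, 662 under any overlap and 720 at the FDR of 1e-10. Under any overlap the median mRNA over the 8 libraries became 6.04 CPM for genes in endosperm only and 3.07 CPM for genes in leaf only. Windows higher in endosperm and in leaf numbered 19 and 56 at the FDR of 1e-10, an alternative chosen after seeing the data, as was leaving out libraries for windows.

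Leaving out 1 library at a time gave differences of 1169 to 1313 peaks and 0.881 to 2.18 Mb. Shares in common ranged from 67.1% to 75.9% of endosperm and from 64.2% to 77.8% of leaf length, with the remaining 2 libraries both required. Windows ranged from 46 to 60 and from 32 to 45, and density calls from 677 to 728 higher and from 734 to 773 lower. DESeq2 called 694 higher and 768 lower regions, edgeR without TMM 629 and 859, and edgeR without the width offset 802 and 746, with 1006 calls shared.

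Deviations of same-numbered libraries correlated at 0.0409, 0.144 and -0.155, and those of differently numbered libraries at -0.207 to 0.151. So few values cannot show whether replicate numbers pair the samples. With the replicate as a block, 787 regions were higher and 807 lower. For the per-library values such a block cannot change the mean difference, since each replicate number occurs in both tissues. Their exact sign-flip p was 0.25, the smallest that 3 pairs allow.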
